A study of Bos taurus with 24 samples.

Results

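Protein palmitoylation and the first steps of sphingolipid synthesis both start from palmitoyl-CoA, and their genes were described here across single bovine metaphase II (MII) oocytes. The list held 10 genes, namely GOLGA7, ZDHHC5, ZDHHC6, ZDHHC9 and LYPLA1 of the palmitoylation cycle and SPTLC1, SPTLC2, KDSR, CERS2 and DEGS1 of the route from serine to ceramide. Rows were taken by gene symbol, and 9 of the 10 genes matched 1 row each among the 17071 rows of the expression table, while LYPLA1 matched none and was not analysed here. GOLGA7 and SPTLC1 were named in the study for their difference between the same groups of oocytes, and the other genes were proposed with results of these data known, so the group differences of all 9 are given as a description. Calls on these genes are given beside the share or number of all genes called, and support nothing. The study asked which transcripts of an oocyte differ after a microinjection that has no intended target. Germinal vesicle stage oocytes of the siRNA injected group (12 oocytes) received a scrambled, non-specific siRNA together with a red fluorescent dextran, and only fluorescent ones were kept. The non-injected group (12 oocytes) received nothing. Both groups were held for 16 h in roscovitine, a cyclin-dependent kinase inhibitor that delays the resumption of meiosis, and then matured for 22 h, and each library held the RNA of 1 oocyte. Since no group received the injection without siRNA, the siRNA, the dextran and the needle cannot be told apart.

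Palmitoylation is the reversible attachment of palmitate to cysteines, which holds proteins on membranes. The acyl group is transferred by the ZDHHC enzymes, named for the zinc finger motif of their active site, some of which need an accessory protein, and it is removed by thioesterases such as LYPLA1. GOLGA7 is a Golgi protein that pairs with ZDHHC9 to palmitoylate HRAS and NRAS and that also binds ZDHHC5. Sphingolipid synthesis opens with serine palmitoyltransferase, an enzyme of the endoplasmic reticulum made of SPTLC1 and SPTLC2 that joins serine to palmitoyl-CoA. KDSR reduces the product, ceramide synthases such as CERS2 add a further acyl chain, and DEGS1 puts in the double bond that gives ceramide, the source of sphingomyelin and glycosphingolipids of the egg's membranes. These roles were worked out in yeast, mouse and human cells.

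Expression was given as RPM, reads scaled to the same total in every oocyte, and by undoing the authors' correction every value came out as a whole number of unique molecular identifiers (UMIs), each standing for 1 captured RNA molecule. The oocytes held 204285 to 382077 UMIs in the siRNA injected and 134080 to 415554 in the non-injected group, so that 1 UMI was worth 2.27 to 7.35 RPM, and a count of 0 allows up to 3 UMIs, or 6.81 to 22.1 RPM. CEL-seq2 reads each molecule at its 3′ end, so RPM is not divided by transcript length, and levels of different genes are compared as numbers of mapped molecules. Reads were mapped to a cDNA library, and whether it holds the full 3′ end of each gene was not checked. A low level or a ratio between genes may therefore partly reflect the library. RPM is a share of the poly(A)-primed RNA of an oocyte. Neither the amount of an RNA per oocyte nor its tail length was measured. Of 10 oocyte markers 8 had a row, with a median of 500.1 RPM over the markers and a summed level of 7319 to 8591 RPM with and 7516 to 9561 RPM without injection. Of 10 cumulus and granulosa markers 9 had a row, with a median of 10.2 RPM and a sum of 143 to 272 and 144 to 221 RPM, respectively. Among them HAS2 (86.4 RPM), INHBA (39.9 RPM) and GJA1 (31.5 RPM) were above 0 in 12 of 12 oocytes of both groups, CYP19A1 (15.8 RPM) in 12 injected and 11 non-injected oocytes and CD44 (10.2 RPM) in 10 and 12. PTX3 was above 0 in 4 and 5 oocytes, and FSHR, CYP11A1 and AMH in at most 2 oocytes of a group. Of the 5 tested cumulus and granulosa markers limma called 0, with 0 at an unadjusted p under 0.05, and their part in the results was not tested. Oocytes that stood apart from the others were siRNA injected 8, with the most detected genes, and non-injected 11, with the fewest UMIs. The sources used here do not tie oocytes to animals, so each p-value reflects only how these 24 oocytes varied.

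By their mean over the 24 oocytes the 9 genes spanned 168-fold. GOLGA7 came first with 714 RPM, rank 206 of the 16442 rows that were above 0 in at least 1 oocyte. It was followed by CERS2 (306 RPM), SPTLC1 (213 RPM), ZDHHC6 (129 RPM), DEGS1 (122 RPM) and ZDHHC5 (84.0 RPM). SPTLC2 (17.1 RPM), KDSR (5.50 RPM) and ZDHHC9 (4.24 RPM) closed the order. GOLGA7 was above CERS2 in 24 of 24 oocytes, SPTLC1 above ZDHHC6 in 23, ZDHHC5 above SPTLC2 in 24 and SPTLC2 above KDSR in 22. Neighbours whose mean log2 ratio within oocytes was smaller than its SD over both groups were taken as not differing beyond their spread. These were CERS2 and SPTLC1 (0.52 ± 0.55, CERS2 higher in 22 of 24 oocytes) and ZDHHC6 and DEGS1 (0.11 ± 0.50, ZDHHC6 higher in 15). The others were DEGS1 and ZDHHC5 (0.48 ± 0.63, DEGS1 higher in 17) and KDSR and ZDHHC9 (0.15 ± 0.83, KDSR higher in 9). For CERS2 and SPTLC1 the SD includes their opposite differences between groups, so CERS2 was still mostly the higher one.

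**Figure D1:**
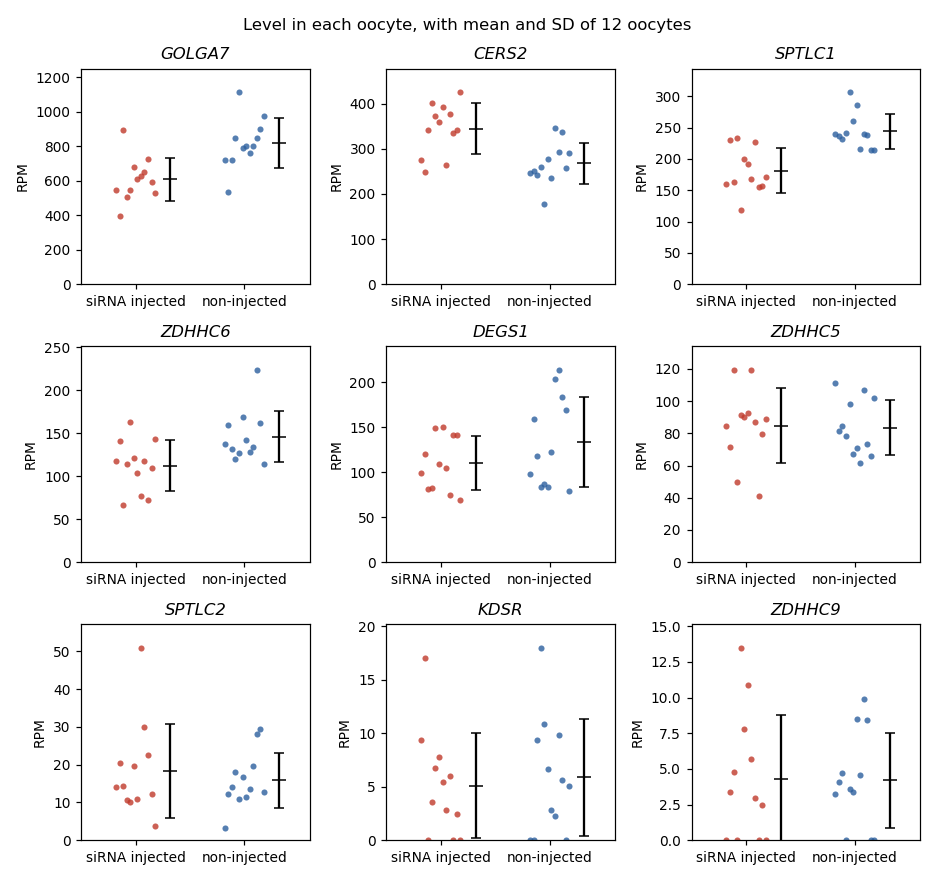
RPM of the 9 genes in each of 12 siRNA injected (red) and 12 non-injected (blue) oocytes, 1 dot per oocyte, with the mean and SD of each group in black, on a linear axis from 0 whose range differs between panels (SD bars that would pass below 0 end at the axis). SPTLC1 and GOLGA7 sit lower and CERS2 higher in siRNA injected oocytes, with overlap in each panel, while KDSR and ZDHHC9 are at 0 in some oocytes of both groups.

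GOLGA7, the accessory protein of ZDHHC9 and ZDHHC5, was lower in siRNA injected oocytes. Its lowest, median and highest values were 398, 601 and 893 RPM in the siRNA injected and 537, 799.8 and 1117 RPM in the non-injected group. Of the injected oocytes 11 of 12 lay under the non-injected median and 3 under every non-injected oocyte, and the groups overlapped between 537 RPM, the value of non-injected oocyte 2, and 893 RPM, the value of injected oocyte 3. The means were 609 ± 125 and 819 ± 143 RPM (SD, n = 12 each), a ratio of 0.743, and the log2 fold change on log2(RPM + 5) was -0.43 (SE 0.12). GOLGA7 rested on 115 to 368 UMIs per oocyte, so counting alone would give a coefficient of variation of 7.37%, whereas oocytes of a group varied by 18.8%. The variance within groups was thus 6.52 times that of counting, more than for any of the other 8 genes. This ratio rises with the number of UMIs, of which GOLGA7 had the most, so it does not rank the genes by variability. By coefficient of variation within groups only CERS2 (16.8%) and SPTLC1 (15.2%) varied less than GOLGA7. GOLGA7B, a close relative that also binds ZDHHC5, was lower than GOLGA7 in 24 of 24 oocytes, and GOLGA7 made up 68.3% ± 8.07 (SD, n = 24) of the sum of both, 64.6% ± 6.87 in the siRNA injected and 72.0% ± 7.69 in the non-injected group (SD, n = 12).

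Transcripts of the enzymes that act with GOLGA7 were far less abundant than those of GOLGA7 itself, and proteins were not measured. ZDHHC9, its partner in RAS palmitoylation, was above 0 in 8 of 12 siRNA injected and 9 of 12 non-injected oocytes. Its lowest, median and highest values were 0, 3.20 and 13.5 RPM and 0, 3.84 and 9.87 RPM, with at most 4 UMIs in an oocyte and 33 UMIs in all. At this depth no difference between groups was detectable and no fold change is given. Over the 24 oocytes the summed RPM of GOLGA7 was 168 times that of ZDHHC9 and 8.5 times that of ZDHHC5. ZDHHC5, a palmitoyltransferase of the plasma membrane, had a lowest, median and highest value of 40.9, 88.0 and 119.5 RPM in siRNA injected and 61.5, 79.8 and 111 RPM in non-injected oocytes. The groups lay over each other, with means of 84.7 ± 23.2 and 83.4 ± 17 RPM and a log2 fold change of -0.01 (SE 0.16).

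ZDHHC6, which palmitoylates proteins of the endoplasmic reticulum such as calnexin and works with the selenoprotein SELENOK, was the most abundant of the 3 palmitoyltransferases described. Its lowest, median and highest values were 66.8, 116 and 163 RPM in the siRNA injected and 115, 136 and 224 RPM in the non-injected group. Of the injected oocytes 9 of 12 lay under the non-injected median and 6 under every non-injected oocyte, and the groups overlapped between 115 and 163 RPM. The means were 112 ± 29.3 and 146 ± 29.8 RPM, with a log2 fold change of -0.39 (SE 0.14). ZDHHC6 was above SELENOK in 7 of 12 siRNA injected and in 12 of 12 non-injected oocytes. Among the 21 ZDHHC genes with a row, ZDHHC6 gave 19.8% ± 5.16 of the summed RPM (SD, n = 24), after ZDHHC3 with 36.2% ± 6.18 and before ZDHHC5 with 12.8% ± 2.68, while ZDHHC9 gave 0.631% ± 0.553. The sum of all 21 was close in both groups, at 649.9 ± 72.9 and 665 ± 66.2 RPM.

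**Figure D2:**
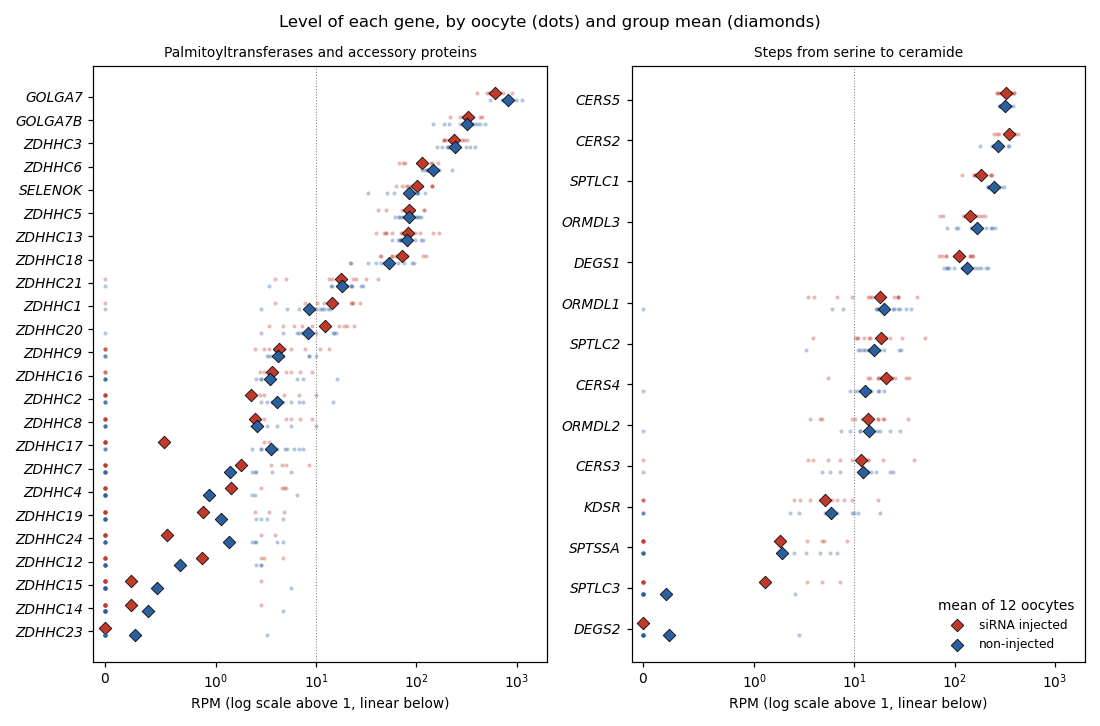
RPM of palmitoyltransferases with their accessory proteins (left) and of the genes from serine to ceramide (right), in order of mean level, with small dots for single oocytes, diamonds for the means of 12 siRNA injected (red) and 12 non-injected (blue) oocytes, and a dotted line at 10 RPM, the minimum mean for testing. The axis is logarithmic above 1 RPM and linear below, and GOLGA7 leads the left panel while ZDHHC9 and KDSR stand left of the line.

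SPTLC1, the subunit of serine palmitoyltransferase that every form of the enzyme contains, was the gene of the 9 with the most injected oocytes below the whole non-injected group. Its lowest, median and highest values were 119, 169 and 234 RPM in siRNA injected and 214, 239 and 307 RPM in non-injected oocytes. All 12 injected oocytes lay under the non-injected median and 9 lay under every non-injected oocyte, while injected oocytes 2, 4 and 9 reached into the non-injected range. The means were 181 ± 35.6 and 244 ± 28.4 RPM, a ratio of 0.743, with a log2 fold change of -0.43 (SE 0.12). Within groups SPTLC1 varied by 15.2%, close to the 13.4% that counting alone would give at 29 to 100 UMIs per oocyte.

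SPTLC2, the subunit that carries the catalytic site, was found at a much lower level. It was above 0 in all 24 oocytes but rested on 1 to 18 UMIs, with a lowest, median and highest value of 3.86, 14.2 and 51.0 RPM in the siRNA injected and 3.25, 13.9 and 29.4 RPM in the non-injected group. The highest value belonged to injected oocyte 8, one of the oocytes that stood apart. The groups overlapped almost throughout, the means were 18.3 ± 12.4 and 15.8 ± 7.33 RPM, and the log2 fold change was 0.10 (SE 0.26). Without injected oocyte 8 it was -0.03, and without non-injected oocyte 1, the lowest of its group, it was -0.02, so SPTLC2 had no direction that held. SPTLC1 was above SPTLC2 in 24 of 24 oocytes, and the log2 ratio of RPM + 5 within an oocyte was 3.39 ± 0.68 (SD, n = 24), ranging from 1.63 to 4.89. In summed RPM this was 12.4 times as much SPTLC1 as SPTLC2. By group the mean log2 ratio was 3.13 ± 0.68 with and 3.66 ± 0.60 without injection, with overlap between groups. SPTLC3, which can take the place of SPTLC2, gave 0.380% ± 0.914 of the summed RPM of the 3 subunits, SPTLC2 7.56% ± 4.46 and SPTLC1 92.1% ± 4.45 (SD, n = 24).

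KDSR, the reductase of the next step, was near the limit of detection, above 0 in 9 of 12 oocytes of each group, with 38 UMIs in all. Its lowest, median and highest values were 0, 4.50 and 17.1 RPM in siRNA injected and 0, 5.34 and 18 RPM in non-injected oocytes, and no fold change is given. CERS2, which makes ceramides with very long acyl chains, was higher in siRNA injected oocytes, against the direction of SPTLC1. Its lowest, median and highest values were 248, 350.4 and 426 RPM in the siRNA injected and 178, 259 and 345 RPM in the non-injected group. Of the injected oocytes 11 of 12 lay above the non-injected median and 6 above every non-injected oocyte, with overlap between 248 and 345 RPM. The means were 344 ± 56.7 and 267 ± 45.3 RPM, a ratio of 1.29, and the log2 fold change was 0.36 (SE 0.12). CERS5, which makes shorter, palmitate-containing ceramides, was the other abundant ceramide synthase, at 326 ± 46.7 and 314 ± 34.5 RPM. CERS2 was above CERS5 in 7 of 12 siRNA injected and 2 of 12 non-injected oocytes, and its share of the 4 ceramide synthases with a row was 48.8% ± 5.22 and 43.9% ± 4.83 (SD, n = 12).

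DEGS1, the desaturase that completes ceramide, had a lowest, median and highest value of 69.6, 107 and 151 RPM in siRNA injected and 78.8, 120.05 and 214 RPM in non-injected oocytes. In the non-injected group 7 oocytes ranged from 78.8 to 122 RPM and 5 from 159 to 214 RPM, above all injected oocytes. The means were 110.3 ± 29.96 and 134 ± 50.2 RPM, and the log2 fold change of -0.22 (SE 0.18) was little more than its error. The variance of DEGS1 within groups was 3.72 times that of counting, second to GOLGA7 by this depth-dependent ratio. Its coefficient of variation within groups was 33.9%, against 17.6% from counting alone, and so larger than the 18.8% of GOLGA7.

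The values that chose GOLGA7 and SPTLC1 were the adjusted p and the fold change of DESeq2, set in the study at 0.05 and 1.2. On the UMI counts recovered here DESeq2 gave an adjusted p of 0.0132 for GOLGA7 and 0.0185 for SPTLC1, both under 0.05, and 0.0672 for CERS2, above it. With these limits DESeq2 called 2 of the 6 genes to which it gave an adjusted p (ZDHHC9, SPTLC2 and KDSR had none), both lower, beside 2.0% of the 3691 genes with an adjusted p that were called lower, 1.03% called higher and 3.03% called in either direction. limma on log2(RPM + 5), run on every gene whose mean reached 10 RPM, which 7 of the 9 did, called none of the 7, beside 0.138% of 7256 genes called lower, 0.0827% called higher and 0.221% in either direction. edgeR with its own filter on low counts called none of the 6 that it kept, beside 0.680% of 4262 genes called lower, 0.493% called higher and 1.17% in either direction. At an unadjusted p under 0.05 in limma, 4 of the 7 passed, beside 12.4% of all genes. The log2 fold change of the median gene was 0.02. For none of the 7 genes did the groups separate fully, nor for any of the 7256 (0%). Since these genes were picked on this contrast, nothing is read from the counts.

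The remaining genes of the palmitoylation cycle were taken from a list of ZDHHC enzymes and accessory proteins, of which 22 were not described above, 20 had a row and 8 reached 10 RPM. Of these 8 limma called 0 (Benjamini-Hochberg adjustment over all 7256 genes, lowest adjusted p 0.358), beside 0.221% of all genes, and DESeq2 called 0 of the 5 to which it gave an adjusted p, beside 3.03%. At an unadjusted p under 0.05, 1 of the 8 passed, beside 12.4% of all genes (6.73% higher and 5.72% lower), a share near the background. Their median log2 fold change was 0.19, beside 0.02 over all genes. The gene with the smallest p was ZDHHC18, a Golgi palmitoyltransferase, with 72.2 ± 25.8 RPM in the siRNA injected and 53.2 ± 24.1 RPM in the non-injected group, a log2 fold change of 0.46 (SE 0.21) and an adjusted p of 0.358 from limma. GOLGA7B (329 ± 62.9 and 319 ± 101 RPM, log2 fold change 0.10, SE 0.15) and SELENOK (101 ± 28.2 and 83.6 ± 24.8 RPM, log2 fold change 0.27, SE 0.18) did not pass. The other 12 genes with a row had means under 10 RPM.

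Of 8 depalmitoylating enzymes 6 had a row and were tested. limma called 0 of the 6, beside 0.221% of all genes, and DESeq2 0 of the 4 with an adjusted p, beside 3.03%. The median log2 fold change was -0.16, and 1 of the 6 passed an unadjusted p under 0.05, beside 12.4% of all genes. That gene was ABHD17C, a thioesterase of the family that removes palmitate from NRAS, with 259 ± 56.1 and 312 ± 58.5 RPM, 11 of 12 injected oocytes under the non-injected median and a limma adjusted p of 0.354. The lysosomal thioesterase PPT2 (85 ± 30.5 and 92.5 ± 22.5 RPM) and the mitochondrial ABHD10 (171 ± 32.4 and 190.3 ± 29.7 RPM) overlapped widely. The mRNAs of both RAS proteins that ZDHHC9 and GOLGA7 modify were measured. NRAS stood at 115 ± 21.9 and 144 ± 22.5 RPM, with 12 of 12 injected oocytes under the non-injected median, a log2 fold change of -0.31 (SE 0.13) and a limma adjusted p of 0.301. HRAS was scarce, at 12.5 ± 8.80 and 8.18 ± 5.26 RPM, with a limma adjusted p of 0.658.

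Beyond the 5 genes described, 9 of 12 listed genes of the route to ceramide had a row and 6 were tested. limma called 0 of the 6, beside 0.221% of all genes, and DESeq2 0 of the 2 with an adjusted p, beside 3.03%. The median log2 fold change was -0.06, and 1 of the 6 passed an unadjusted p under 0.05, beside 12.4% of all genes. That gene was CERS4, a scarce ceramide synthase, with 20.5 ± 8.24 and 12.8 ± 5.11 RPM, a log2 fold change of 0.53 (SE 0.25) and a limma adjusted p of 0.373. CERS5, given above, had a log2 fold change of 0.05 (SE 0.10). Of the 3 ORMDL proteins, which hold serine palmitoyltransferase back when ceramide is plentiful, ORMDL3 made up 82.3% ± 8.02 of the summed RPM (SD, n = 24), and SPTLC1 was above ORMDL3 in 20 of 24 oocytes.

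Of 26 genes that use or degrade ceramide 22 had a row and 10 were tested. limma called 0 of the 10, beside 0.221% of all genes, and DESeq2 0 of the 6 with an adjusted p, beside 3.03%. At an unadjusted p under 0.05, 3 of the 10 passed, beside 12.4% of all genes, and the median log2 fold change was -0.06. SGMS2, a sphingomyelin synthase, had 221 ± 46.9 and 174 ± 34.6 RPM and a log2 fold change of 0.33 (SE 0.13, limma adjusted p 0.281). SMPD4, a sphingomyelinase, had 49.3 ± 27.7 and 33.0 ± 16.4 RPM and a log2 fold change of 0.53 (SE 0.25, limma adjusted p 0.384). SGPL1, the lyase that ends sphingolipid breakdown, had 52.0 ± 21.6 and 73.5 ± 24.3 RPM and a log2 fold change of -0.51 (SE 0.22, limma adjusted p 0.307). PSAP, the precursor of the saposins that present sphingolipids to lysosomal enzymes, was the most abundant of the 22, with 262 ± 46.1 and 309 ± 111 RPM. Of the injected oocytes 11 of 12 lay under the non-injected median of PSAP, but its log2 fold change was -0.18 (SE 0.15, limma adjusted p 0.684). Of the 16 tested genes of both sphingolipid lists, 6 had a log2 fold change above and 10 below 0.

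**Figure D3:**
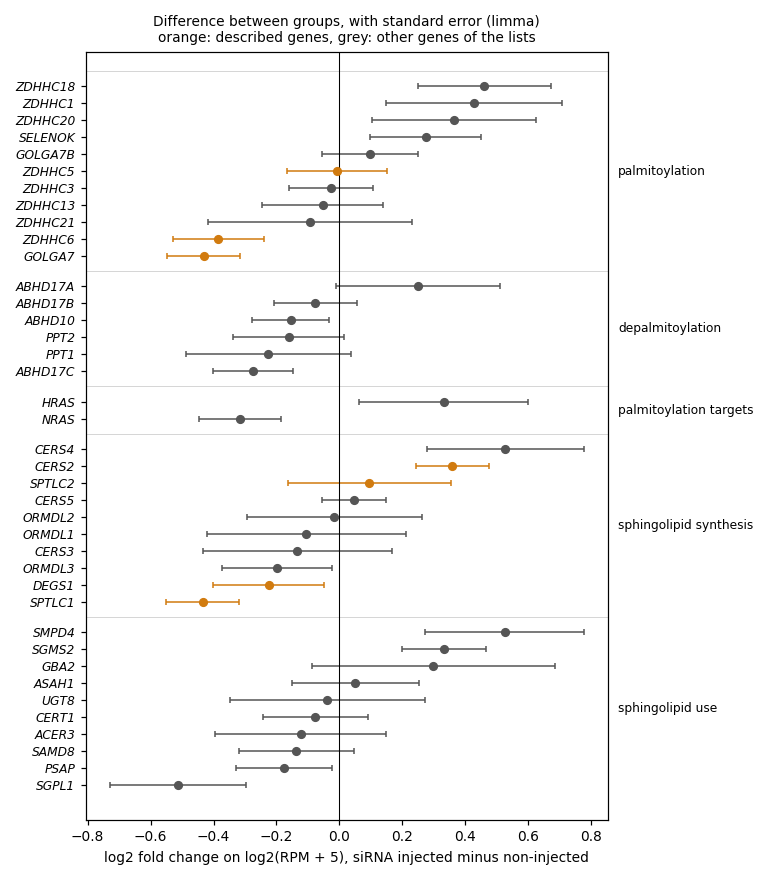
Log2 fold change on log2(RPM + 5), siRNA injected minus non-injected, with its standard error from limma, for the tested genes of each list. The 7 described genes are in orange and the others in grey, and GOLGA7, ZDHHC6 and SPTLC1 lie left of 0 and CERS2 right of 0 while ZDHHC5 and SPTLC2 lie within 1 standard error of 0.

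Levels were also compared oocyte by oocyte within the groups. After subtracting group means from log2(RPM + 5), Pearson's r of the 21 pairs among the 7 genes that were tested ran from -0.54 to 0.26 over 24 oocytes, with a median of -0.10, and is given as a description with no p. All values of an oocyte share 1 library and 1 RPM total. GOLGA7 and SPTLC1 had an r of -0.10 (Spearman's rho -0.16). The lowest r belonged to GOLGA7 and ZDHHC6, at -0.54 (Spearman's rho -0.47). It was -0.74 among siRNA injected and -0.21 among non-injected oocytes, and the difference between these was not tested. Injected oocytes 3, 8 and 10, the lowest for ZDHHC6 at 66.8 to 76.6 RPM, included the highest 2 of their group for GOLGA7. Injected 3 and non-injected 2 were the 2 oocytes farthest from the median of GOLGA7 after subtracting group means, though not in RPM. Without them r was -0.42, and it ranged from -0.62 to -0.41 when each oocyte was left out in turn.

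**Figure D4:**
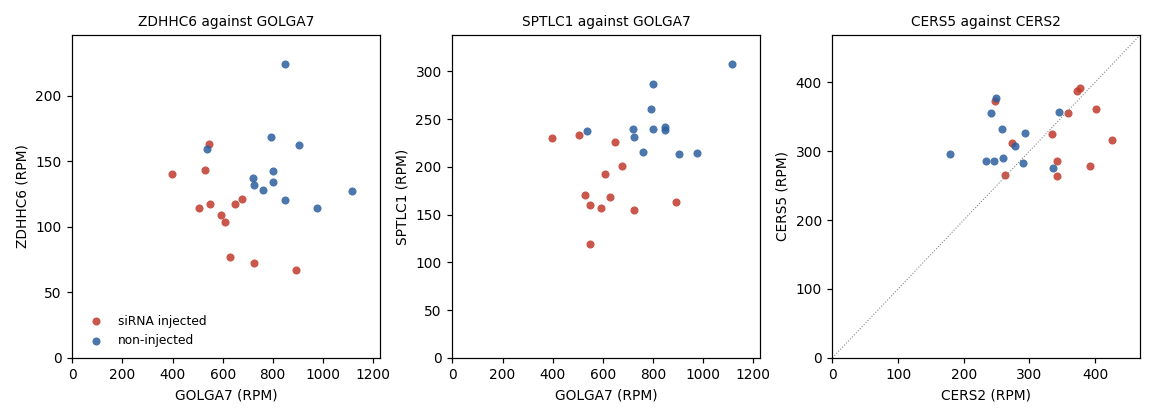
RPM of ZDHHC6 and SPTLC1 against GOLGA7 and of CERS5 against CERS2, 1 dot per oocyte, for 12 siRNA injected (red) and 12 non-injected (blue) oocytes, on linear axes from 0, with a dotted line where CERS5 equals CERS2. ZDHHC6 tends to be lower where GOLGA7 is higher among injected oocytes, SPTLC1 shows no such order, and 7 red but 2 blue dots lie under the dotted line.

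The genes most like GOLGA7 across the 24 oocytes, by the same centred r over 7256 genes, were UPRT (0.74), bta-mir-2904-3 (0.73), LSM12 (0.72), TMEM266 (0.70) and bta-mir-2887-2 (0.69), where the median gene had an r of 0.03 and 95% of genes lay under 0.41. Each of both microRNA symbols stands on 10 rows, so their reads may be split among near-identical copies. For SPTLC1 they were CCDC137 (0.66), CAMTA1 (0.64), CNTRL (0.62), SNX14 (0.62) and CYFIP1 (0.61), with a median of -0.03 over all genes and 95% under 0.35. None of these is a gene of the lists above. The choice of these names was not stable, since 1 of the 5 genes for GOLGA7 remained when non-injected oocyte 2 was left out and 0 of the 5 for SPTLC1 when siRNA injected oocyte 5 was left out.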

How the data were processed

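Single bovine MII oocytes were profiled by CEL-seq2. The authors mapped reads to a cDNA library, counted each UMI of a gene once and deposited RPM values, and the submitters' processing notes name the build UMD 3.1. The aligner was not given in the sources used here. Groups came from titles and genotype labels, since the treatment label is shared by all 24 oocytes. Whole UMI counts were recovered from the deposited RPM with a capacity of 4048 (100% whole within 0.001).

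limma 3.58.1 (eBayes with trend, R 4.3.3) was run on log2(RPM + 5), leaving out genes whose mean was under 10 RPM. P-values were adjusted by Benjamini-Hochberg, and calls needed an adjusted p under 0.05 together with a fold change over 1.2. On this scale fold changes of low genes are understated. DESeq2 1.42.0 and edgeR 4.0.16 were run on the recovered counts as alternatives, beside other pseudocounts, filters, TMM scaling, a depth covariate, a replicate block and each oocyte left out. The main limma fit, DESeq2 and edgeR with a minimum mean of 10 RPM were tested on simulated data, and the other settings were not. The genes and lists were chosen with earlier results of these data known. Other genes are named when among the 4 smallest p or 2 highest levels of a list, or the 5 most alike, and ORMDL3 and ZDHHC3 were added after their values were seen. SPTLC3, PTX3, FSHR, CYP11A1 and AMH are also named outside this rule. Ratios and shares used Python 3.11.15.

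Limits from a count of 0 and counting variation cover counting error only. Coordinates are not printed, because the gene table at hand is of another assembly.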

Additional observations from a re-analysis of the deposited data

How the results depend on the processing

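The log2 fold changes of GOLGA7 (-0.48 to -0.38), SPTLC1 (-0.47 to -0.38), ZDHHC6 (-0.44 to -0.33), DEGS1 (-0.28 to -0.16) and CERS2 (0.31 to 0.40) kept their direction when each oocyte was left out in turn and under all 11 other alternatives. Over the same settings ZDHHC5 (-0.08 to 0.08) and SPTLC2 (-0.03 to 0.26) did not. The genes were chosen with results of these same oocytes known, so a kept direction is no independent support. The highest values of SPTLC2 came from the count tests (0.25 by edgeR and 0.26 by DESeq2). The order of the 9 levels was the same under TMM scaling and with each oocyte left out; it uses no pseudocount. The SPTLC1 to SPTLC2 log2 ratio was 3.33 to 3.47 with each oocyte left out and 3.39 to 3.72 under the other settings tried for it. A minimum mean of 30 RPM, and edgeR's own filter, removed SPTLC2.

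Counts over all genes, 6 higher and 10 lower by limma, were far less stable. They were 2 higher with a pseudocount of 1 RPM, 2 higher under TMM scaling, 19 and 33 with a mean of at least 30 RPM, 14 and 17 with a depth covariate, 38 and 74 by DESeq2, and 0 and 0 with no filter (1332 genes at an unadjusted p under 0.05). edgeR with a minimum mean of 10 RPM, a filter set after the test on simulated data, called 0 and 0 (848 unadjusted), and with its own filter, added after seeing the data, 21 and 29. Without both oocytes that stood apart, also added after seeing the data, limma called 0 and 0 (799 unadjusted). With each oocyte left out the counts were 0 to 14 higher and 0 to 23 lower; both were 0 without non-injected oocyte 8, 10 or 11 (889, 887 and 828 unadjusted).

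No palmitoylation or sphingolipid gene was called higher under any setting. GOLGA7 was the 1 palmitoylation gene called lower by DESeq2, beside 74 of all 3691 genes with an adjusted p. limma called it lower without siRNA injected oocyte 3, beside 15 of 7211 genes, and without non-injected oocyte 2, beside 15 of 7272. With each oocyte left out 0 to 1 palmitoylation genes were called lower. SPTLC1 was the 1 sphingolipid gene called lower by DESeq2, beside the same 74 genes. It was also the 1 called lower with a mean of at least 30 RPM, beside 33 of 4640 genes. Both genes were picked on this contrast, so nothing is read from these calls. Why these counts move with the setting was not tested. Of the 5 genes most like GOLGA7, 3 remained under TMM scaling and 1 to 5 with each oocyte left out, and of those most like SPTLC1, 2 and 0 to 5.

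The numbers in the oocyte names are not said to pair the groups. Same-numbered oocytes correlated at -0.12 to 0.17 over 12 pairs, 2 pairs passed 0.1, and 1 injected oocyte was closest to its own number. Such weak correlations show no clear pairing but cannot exclude a shared origin of same-numbered oocytes. With the number as a replicate block limma called 6 higher and 5 lower genes.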
